A study of Mus musculus with 16 samples.

Results

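The hair follicle stem and root sheath genes described here are 10 protein-coding mouse genes, chosen by symbol: *Tchh*, *Lrig1*, *Lgr5*, *Lgr6*, *Sox9*, *Msx2*, *Hoxc13*, *Foxn1*, *Gata3* and *Dlx3*. Each matched 1 row of a count table with 55487 gene IDs, of which 44374 had a read in at least 1 library. Bulk RNA-seq was done on cells of mouse skin sorted by CD45, the leukocyte surface protein encoded by *Ptprc*. The CD45-negative cells are called stromal here and the CD45-positive cells immune. The 16 libraries formed 4 groups of 4. The stretched stromal libraries (5, 6, 7 and 8 in the labels) and the stretched immune libraries (1, 2, 7 and 8) came from skin stretched by hypobaric pressure, which pulls it outward, and taken 6 h later. The control stromal libraries (1, 2, 3 and 4) and the control immune libraries (3, 4, 5 and 6) came from skin of the corresponding area that was not stretched. The labels name no strain, age, sex or transgene and do not tell whether the 4 libraries of a group are 4 animals. The spread behind each p-value is that between these libraries and may be technical.

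The hair follicle is a tube of epithelium that renews itself in cycles of growth, regression and rest. Its stem cells lie in the bulge, the hair germ and the isthmus, and their progeny in the hair bulb form the inner root sheath and the hair shaft. SOX9 marks and maintains bulge stem cells. LGR5 and LGR6 are receptors for R-spondins, which raise WNT signalling, and mark cycling cells of the lower follicle and cells of the upper follicle. LRIG1 is a membrane protein that restrains ERBB receptors and marks the junctional zone above the bulge. GATA3 specifies the inner root sheath, and trichohyalin, the product of *Tchh*, hardens that sheath and the medulla. MSX2, DLX3 and HOXC13 are homeodomain proteins and FOXN1 is a forkhead protein, all of which act in the differentiating hair shaft.

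Promoter sequences were available for 6 of the 10 genes (*Tchh*, *Lrig1*, *Lgr6*, *Msx2*, *Foxn1* and *Gata3*), from RefSeq on GRCm38.p6. Those of *Tchh* and *Lrig1* are printed because both genes passed the test for stretch in the stromal fraction, and that of *Foxn1* because its reads separated the stromal groups completely. Each window runs from 250 bases before the annotated start to 50 bases after it, 5′ to 3′ on the strand of the gene: *Tchh* on the plus strand of chr3:93442080-93442379, *Lrig1* on the minus strand of chr6:94700096-94700395 and *Foxn1* on the minus strand of chr11:78386559-78386858. Capitals mark matches on either strand to the motifs searched. The homeodomain core was searched as TAATT and the GATA site as GATAA. The SOX site was searched as ACAAT, the core that FOXN1 recognises as GACGC and the TATA box as TATAAA.
Tchh: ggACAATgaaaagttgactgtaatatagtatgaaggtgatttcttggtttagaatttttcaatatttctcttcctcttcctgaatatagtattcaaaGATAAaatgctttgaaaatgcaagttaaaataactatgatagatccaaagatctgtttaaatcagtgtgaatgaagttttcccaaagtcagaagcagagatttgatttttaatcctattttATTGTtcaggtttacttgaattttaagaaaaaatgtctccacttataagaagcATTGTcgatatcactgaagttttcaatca
Lrig1: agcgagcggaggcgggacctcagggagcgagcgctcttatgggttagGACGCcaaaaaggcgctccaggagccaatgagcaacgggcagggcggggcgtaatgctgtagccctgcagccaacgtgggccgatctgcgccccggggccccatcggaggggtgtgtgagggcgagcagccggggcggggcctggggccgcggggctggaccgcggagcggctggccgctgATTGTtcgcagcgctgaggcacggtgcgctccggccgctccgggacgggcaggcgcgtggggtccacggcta
Foxn1: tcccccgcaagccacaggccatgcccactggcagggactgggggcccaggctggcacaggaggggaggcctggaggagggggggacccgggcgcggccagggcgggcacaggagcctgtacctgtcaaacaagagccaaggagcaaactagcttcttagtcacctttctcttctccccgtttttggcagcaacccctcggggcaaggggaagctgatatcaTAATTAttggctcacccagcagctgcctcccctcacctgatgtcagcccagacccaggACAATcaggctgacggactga
The bases of the *Tchh* window were 28.7% G or C, against a median of 52.7% over all 27025 promoters of the table. The *Lrig1* window had 73.0% and the *Foxn1* window 62.7%. ACAAT was found 3 times in the *Tchh* window and once each in those of *Lrig1*, *Foxn1* and *Lgr6*, so 4 of the 6 windows held it, against 31.6% of all promoters. TAATT was found in the windows of *Foxn1* and *Msx2*, and in 27.3% of all promoters. The 2 matches in *Foxn1* overlap each other on opposite strands, as do 2 of the 3 in *Msx2*. GACGC stood in the windows of *Lrig1*, *Msx2* and *Gata3* (27.4% of all promoters), and GATAA in that of *Tchh* alone among the 6 (25.8% of all promoters). TATAAA was in 14.2% of all promoters and in none of these 6. A match is a string of letters and does not show that a factor binds there.

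Total counts per library were 21955174 to 26944965 in the stretched stromal group, 13563586 to 20467010 in the control stromal group, 7018743 to 20095580 in the stretched immune group and 2645421 to 6662268 in the control immune group. In both fractions every stretched library was deeper than every control library, so treatment and depth cannot be told apart. *Ptprc* averaged 1.71 ± 1.21 CPM (counts relative to library size) in stretched stromal and 0.533 ± 0.570 CPM in control stromal libraries, against 494 ± 145 CPM in stretched immune and 409 ± 186 CPM in control immune libraries (SD, n = 4 each; CPM scaled between libraries with edgeR's TMM factors). The 1972 receptor genes of the nose, olfactory and vomeronasal, took 424 CPM of the library total in stretched stromal 7, 208 CPM in stretched stromal 8 and 6209 CPM in control immune 4. The other 13 libraries had 17.96 to 69.9 CPM. Values without the first 3 stand beside the results they move most.

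Compared per length of transcript (a TPM-like level: reads per kilobase of transcript as a share of their sum), *Sox9* stood highest of the 10 in both stromal groups, at 31.1 ± 10.8 in stretched and 16.1 ± 4.89 in control libraries (SD, n = 4 each). *Lrig1* followed with 19.4 ± 7.68 in stretched and 7.27 ± 1.52 in control libraries, and *Lgr5* with 17.1 ± 6.76 in stretched and 6.00 ± 3.04 in control libraries. *Gata3* was the fourth, at 9.95 ± 3.90 in stretched and 4.93 ± 4.02 in control libraries. The remaining 6 genes averaged 0.512 to 3.01 in the stretched stromal group and 0 to 1.32 in the control stromal group, with *Foxn1* lowest in both. Among neighbours in this order, the ranges of *Sox9* and *Lrig1* did not overlap in control stromal libraries, and the ranges of all other neighbours overlapped in both stromal groups. The order was different in the immune fraction, where *Gata3* stood highest, with a level of 15.9 ± 3.69 in stretched and 22.2 ± 4.39 in control libraries, ahead of *Sox9* with 6.08 ± 3.92 in stretched and 11.9 ± 10.7 in control libraries (SD, n = 4 each).

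**Figure D1:**
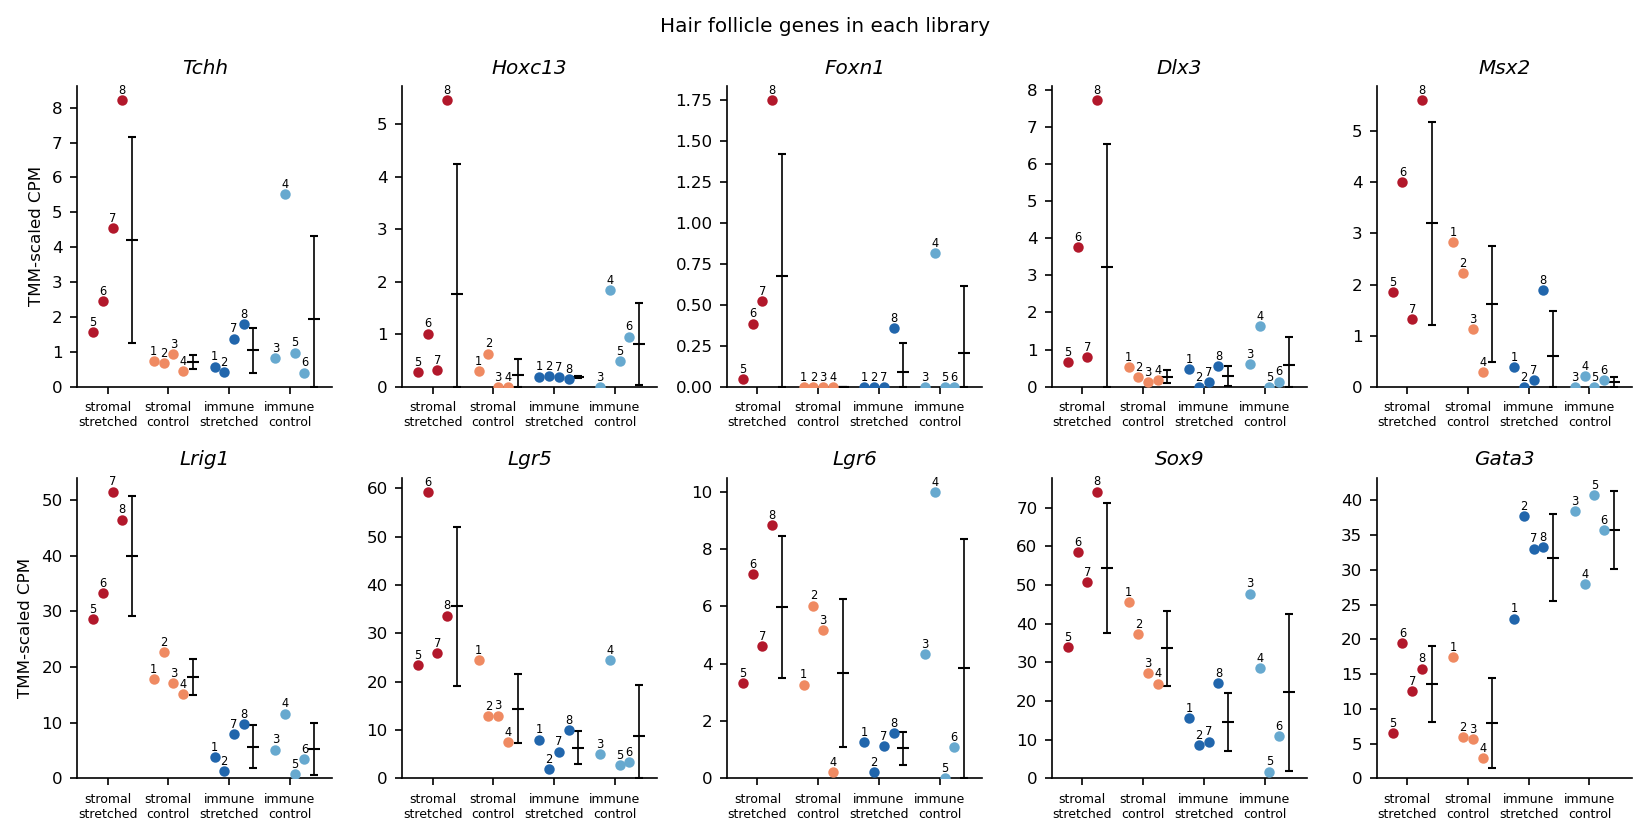
TMM-scaled CPM (linear axes from 0, 1 panel per gene) of the 10 genes in each of the 16 libraries, numbered as in the labels, with the mean ± SD of each group to the right of its points; bars are cut at 0. All stretched stromal points lie above all control stromal points for *Tchh*, *Lrig1*, *Dlx3* and *Foxn1*, and *Gata3* is the gene whose immune libraries lie above all stromal ones.

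In the stromal fraction, stretched skin held more *Tchh*, *Lrig1* and *Dlx3* RNA than control skin. These 3 of the 8 members that could be tested passed, all higher, where 2.05% of the 16074 genes tested were higher, 2.93% lower and 4.98% either (adjusted p under 0.05 in edgeR's quasi-likelihood test, by Benjamini and Hochberg's method over all genes tested). *Hoxc13* and *Foxn1* had too few reads for the filter on low counts. The log2 fold change of every member tested was above 0, between 0.61 and 3.51, while the median over all genes tested was 0.012. *Tchh*, *Dlx3*, *Msx2* and *Lgr6* had as few as 8, 2, 5 and 4 reads in a control library. They met the filter only with stretched libraries, so their signs and calls are not independent of the filter. All 4 stretched libraries lay above all 4 control libraries for *Tchh*, *Lrig1* and *Dlx3* among the members tested, as they did for 10.4% of all genes tested. No member had all stretched libraries below all controls, against 7.51% of genes. In bulk RNA, more cells of a type and more RNA per cell cannot be told apart.

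*Tchh* (ENSMUSG00000052415; GRCm38 chr3:93442330-93449077, plus strand) encodes trichohyalin, the protein that hardens the inner root sheath. Its TMM-scaled CPM was 1.57, 2.46, 4.55 and 8.21 in stretched stromal libraries 5, 6, 7 and 8, against 0.743, 0.688, 0.937 and 0.457 in control stromal libraries 1 to 4. The lowest stretched library stood above the highest control library, and library 8 alone held 53.9% of the 427 *Tchh* reads of its group. The log2 fold change was 2.50 ± 0.54 (SE; edgeR, adjusted p = 0.0431). The exact two-sided permutation test of the 4 against 4 libraries gave p = 0.0286, the smallest it allows.

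*Dlx3* (ENSMUSG00000001510; chr11:95120119-95125296, plus strand) encodes a homeodomain protein that the hair shaft and the inner root sheath need. It had 0.665, 3.76, 0.805 and 7.71 TMM-scaled CPM in stretched stromal libraries 5 to 8, against 0.520, 0.264, 0.125 and 0.171 CPM in control stromal libraries 1 to 4. Libraries 5 and 7 lay just above the highest control library, and libraries 6 and 8 far above it. The log2 fold change was 3.51 ± 0.85 (SE; edgeR, adjusted p = 0.0471), on 328 reads in the stretched and 17 reads in the control group.

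*Foxn1* (ENSMUSG00000002057; chr11:78357577-78386558, minus strand), which is mutated in nude mice, encodes a forkhead factor of the hair matrix and shaft. It had 1, 8, 13 and 49 reads in stretched stromal libraries 5 to 8, or 71 of 94206831 counts. In the control stromal libraries it had 0 of 68959469 counts. Set against a floor of 3 counts over the control group, the level in the stretched group was at least 17.3-fold higher, an estimate that covers counting error only. Complete separation upward was seen in 5.33% of the 41025 genes with a stromal read. For *Foxn1* it hung on the 1 read of library 5. That read is 0.0438 CPM of the library total, against 0.0435 CPM for the floor of the control group. Library 8 gave 69.0% of the reads, and 22 reads in 67261866 counts remained without it, for a level at least 7.52-fold higher. Without libraries 7 and 8 the group held 9 reads in 44776743 counts, at least 4.62-fold higher against the same floor.

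*Hoxc13* (ENSMUSG00000001655; chr15:102921103-102928814, plus strand) encodes a homeodomain factor that switches on hair keratin genes. It had 6, 21, 8 and 153 reads in stretched stromal libraries 5 to 8, against 4, 12, 0 and 0 reads in control stromal libraries 1 to 4. Library 8 held 81.4% of the reads of its group, and the groups overlapped. *Msx2* (ENSMUSG00000021469; chr13:53466884-53473074, minus strand) encodes a homeodomain factor that maintains the hair shaft programme. Its CPM of 1.85, 4.001, 1.33 and 5.603 in stretched stromal libraries overlapped the 2.82, 2.22, 1.12 and 0.286 CPM of the control stromal libraries, with a log2 fold change of 0.90 ± 0.63 (SE; edgeR, adjusted p = 0.388).

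Of the stem cell markers, *Lrig1* (ENSMUSG00000030029; chr6:94604529-94700158, minus strand) separated the groups. It had 28.6, 33.3, 51.5 and 46.5 TMM-scaled CPM in stretched stromal libraries 5 to 8, against 17.8, 22.7, 17.1 and 15.1 CPM in control stromal libraries 1 to 4. The reads were spread over the libraries, with no stretched library holding more than 33.6% of the 3875 reads of its group. The log2 fold change of 1.06 ± 0.23 was the smallest of the 3 that passed and the most precise (SE; edgeR, adjusted p = 0.0431). The gene overlaps *Slc25a26* on the opposite strand, which had 1288 reads over all 16 libraries, and whether the counting used strand is not given in the sources used here.

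*Lgr5* (ENSMUSG00000020140; chr10:115450311-115587780, minus strand) had 23.5, 59.3, 25.9 and 33.7 CPM in stretched stromal libraries 5 to 8, against 24.4, 12.9, 12.99 and 7.43 CPM in control stromal libraries 1 to 4. One control library, number 1, reached into the stretched range, and 3 of 4 stretched libraries lay above all controls. The log2 fold change of 1.21 ± 0.38 did not pass (SE; edgeR, adjusted p = 0.0763). *Lgr6* (ENSMUSG00000042793; chr1:134983301-135105276, minus strand) had 3.32, 7.13, 4.63 and 8.85 CPM in stretched and 3.27, 6.03, 5.18 and 0.229 CPM in control stromal libraries, and control library 4, with 4 reads, stood apart from the other controls. Its log2 fold change was 0.61 ± 0.65 (SE; edgeR, adjusted p = 0.586).

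*Sox9* (ENSMUSG00000000567; chr11:112782224-112787760, plus strand) had 33.9, 58.5, 50.8 and 74.2 CPM in stretched stromal libraries 5 to 8, against 45.5, 37.2, 27.3 and 24.5 CPM in control stromal libraries 1 to 4. Stretched library 5 lay within the control range and the other 3 above it, and the log2 fold change of 0.61 ± 0.27 did not pass (SE; edgeR, adjusted p = 0.172). *Gata3* (ENSMUSG00000015619; chr2:9857078-9890034, minus strand) had 6.504, 19.5, 12.6 and 15.8 CPM in stretched and 17.5, 5.92, 5.62 and 2.86 CPM in control stromal libraries. Control library 1 was above all stretched libraries but number 6. Its log2 fold change was 0.69 ± 0.50 (SE; edgeR, adjusted p = 0.412).

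**Figure D2:**
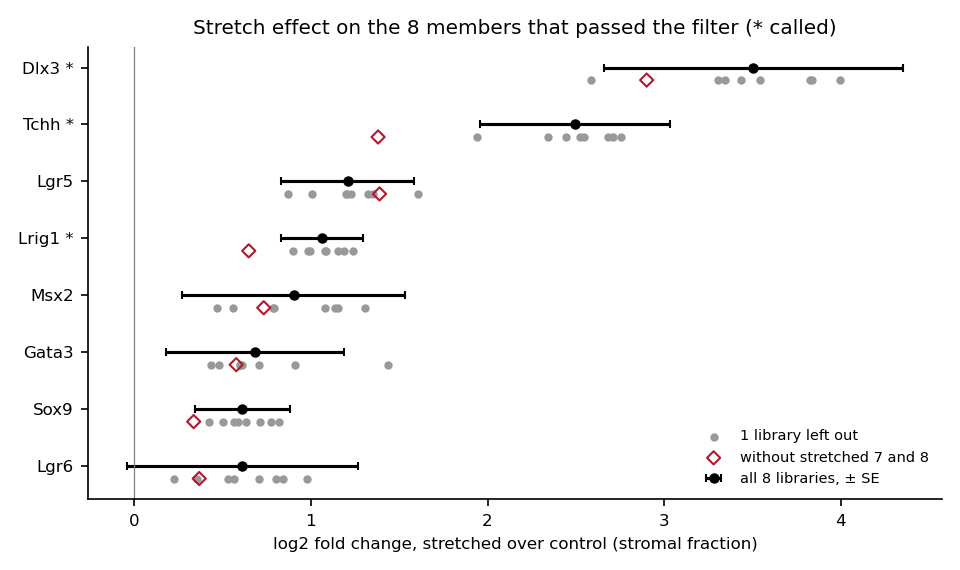
Log2 fold change of stretched over control stromal libraries for the 8 members tested. Black points with bars are the estimate ± SE from all 8 libraries, grey points the estimates with 1 library left out, and open diamonds those without stretched libraries 7 and 8; without libraries 7 and 8 the values of *Tchh* and *Lrig1* are 1.38 and 0.65, against 2.50 and 1.06 from all libraries.

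The calls were lost when most single libraries were left out, while the direction was kept. The 3 calls stood near the threshold, and the smallest adjusted p of all genes tested was 0.0363 (edgeR). Over single omissions the adjusted p of each of the 3 ranged from 0.0324 to 0.138 (edgeR). Without stretched libraries 7 and 8 the log2 fold changes were 1.38 for *Tchh*, 0.65 for *Lrig1* and 2.90 for *Dlx3*, and no gene of the whole table passed. All 3 calls were lost when stretched library 6, 7 or 8 or control library 1, 2 or 3 was left out, and those of *Lrig1* and *Dlx3* also without control library 4. Over these single omissions *Tchh* kept a log2 fold change of 1.94 to 2.76, *Lrig1* of 0.90 to 1.24 and *Dlx3* of 2.58 to 3.99. When each library's count of detected genes entered the fit as a covariate, they were 1.09, 0.48 and 2.84, and with offsets for transcript length and GC content 2.16, 0.76 and 3.39, with none of the 3 called in either fit.

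Within the stretched stromal group most members had the same highest and lowest library. Library 8 was the highest of its group for 7 of the 10 genes, and library 5 the lowest for 9. *Lrig1* was highest in library 7, *Lgr5* and *Gata3* in library 6, and *Msx2* was lowest in library 7. Library 8 was also the deepest of the group, and library 5 had its fewest detected genes. How many of all genes had these extremes was not tested. In the control stromal group library 1 was the highest for 5 of the 9 genes with a read there and library 4 the lowest for 7. Expressed as deviations from the mean of their own group on the log2 scale, *Lgr5* and *Gata3* were the most alike of the pairs (r = 0.92, rho = 0.90), and among the others *Sox9* and *Dlx3* had r = 0.87 and rho = 0.88. Pairs with *Foxn1* were left out, since it had no read in control stromal libraries. *Lrig1* and *Lgr5* were the pair least alike (r = 0.06, rho = 0.26). These are descriptions over 8 libraries, in which all genes of a library share its depth and its cell mix.

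**Figure D3:**
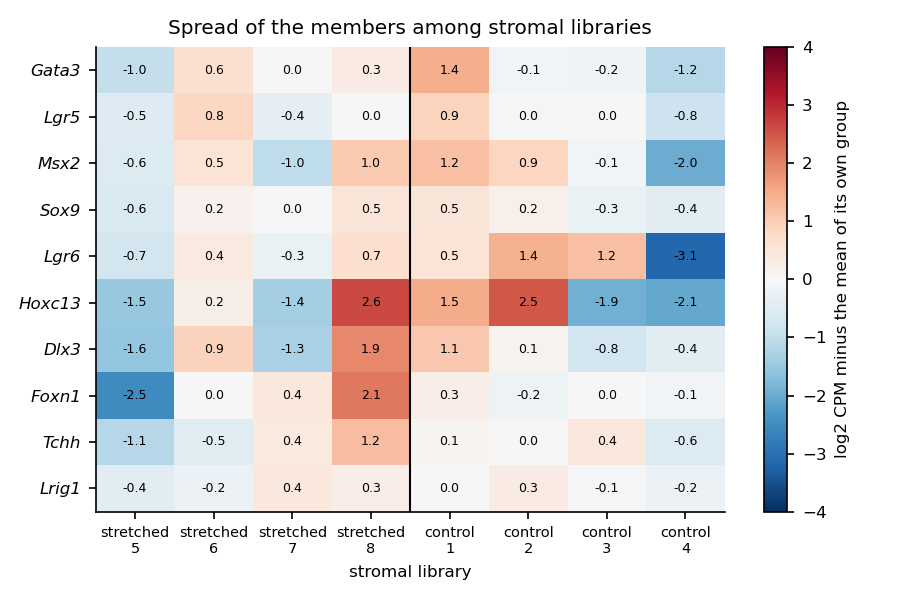
Deviation of each stromal library from the mean of its own group, in log2 CPM with a prior count of 0.5 (red above, blue below), for the 10 genes in rows and the 8 libraries in columns. Stretched library 5 is the lowest of its group for 9 genes and stretched library 8 the highest for 7; values of *Foxn1* and *Hoxc13* in control libraries reflect 0 to 12 reads.

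Keratinocyte genes varied along with several members. The summed level of 10 basal keratinocyte genes, *Krt5*, *Krt14* and *Trp63* among them, was 550, 1398, 1066 and 1473 CPM in stretched stromal libraries 5 to 8, against 1394, 599, 522 and 117 CPM in control stromal libraries 1 to 4. All 10 had reads in every stromal library, 0 of the 10 passed the test for stretch, and their median log2 fold change was 1.09. *Gata3* took the same order as this sum among the controls. By Pearson's r its deviations followed those of the sum most closely of the 10 (r = 0.95, rho = 0.93, n = 8). Without the 2 libraries farthest from the median of the sum it had r = 0.92. By rho *Lgr5* was the closest (rho = 0.98). *Msx2* (r = 0.90), *Lgr5* (r = 0.89), *Sox9* (r = 0.83) and *Lgr6* (r = 0.81) came next, and each stayed at or above 0.70 without those 2 libraries. Of the 3 genes that passed, *Dlx3* had r = 0.60 over all 8 libraries (rho = 0.79) and r = 0.83 without those 2, so its place in this order depends on them. *Tchh* had r = 0.47 (0.58 without them) and *Lrig1* r = 0.40 (0.48 without them). Control library 1 had a keratinocyte sum within 1394 to 1473 CPM, like stretched libraries 6 and 8. It had 0.743 CPM of *Tchh*, against 2.46 and 8.21 CPM in those stretched libraries. For *Lgr5* the values were 24.4 CPM against 59.3 and 33.7 CPM, and for *Gata3* 17.5 CPM against 19.5 and 15.8 CPM. These values rest on 1 control library. Other lists, described below, followed some members as closely (r without the 2 libraries farthest from each list's median in brackets). *Lgr6* had r = 0.92 (0.63) with the dermal papilla genes and *Msx2* 0.91 (0.83) with the melanocyte genes. *Lgr5* had 0.89 (0.44) with the sebaceous gland genes. *Tchh* had 0.77 (0.60) and *Lrig1* 0.82 (0.78) with the LGR and R-spondin genes. The r of largest size was inverse for both, with the lymphatic endothelial genes: −0.84 (−0.94) for *Tchh* and −0.87 (−0.68) for *Lrig1*. *Gata3* and *Sox9* had their highest r with the basal keratinocyte genes. The part of keratinocyte content in the members' values was not tested.

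**Figure D4:**
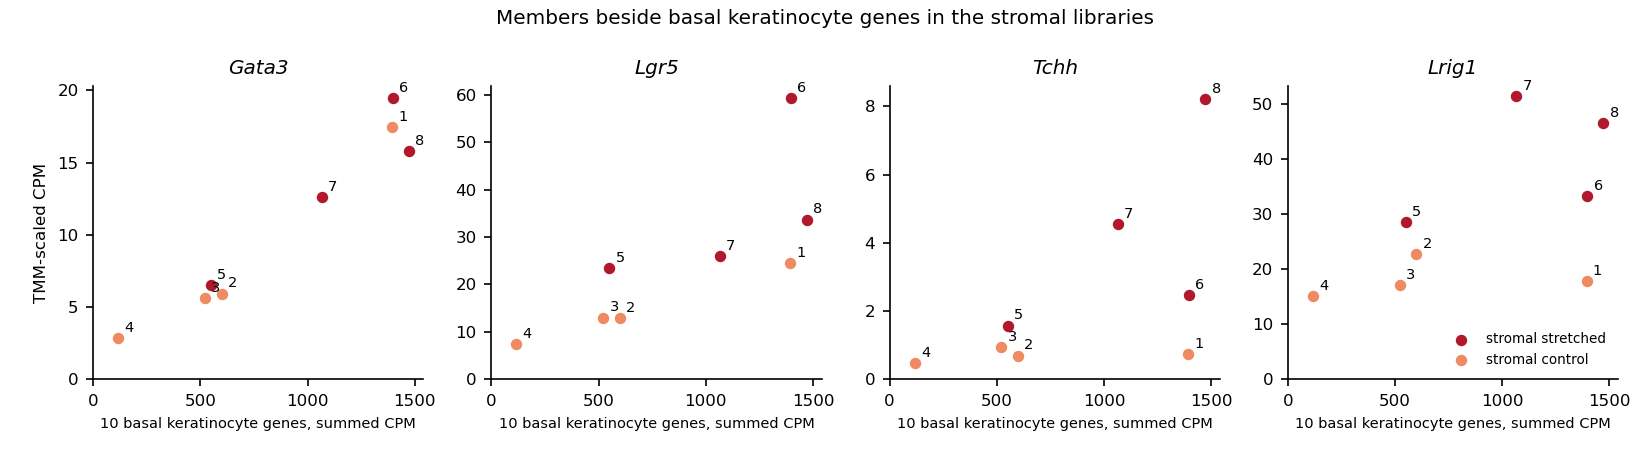
TMM-scaled CPM of *Gata3*, *Lgr5*, *Tchh* and *Lrig1* (vertical axes) against the summed CPM of 10 basal keratinocyte genes (horizontal axes) in the 8 stromal libraries, stretched in red and control in orange. *Gata3* lies close to 1 line for both groups. For *Lgr5*, *Tchh* and *Lrig1*, control library 1 lies below stretched libraries 6 and 8, which had a like keratinocyte sum.

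The rarest members were set beside the receptor genes per length. In stretched stromal library 8 the receptor genes came to 0.0354 CPM per kilobase of transcript, against 0.566 for *Foxn1*, 2.31 for *Hoxc13* and 3.07 for *Dlx3* in that library. In stretched stromal library 7 they came to 0.0721 CPM per kilobase, against 0.145 for *Hoxc13*, 0.180 for *Foxn1* and 0.863 for *Tchh*. In control immune library 4 they came to 1.06 CPM per kilobase, close to *Dlx3* at 1.16, *Hoxc13* at 1.38 and *Tchh* at 1.75, and above *Foxn1* at 0.470 and *Msx2* at 0.154. The part of such reads in the members' counts was not tested.

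In lists of other follicle genes, 3 of 4 lists held 1 gene higher in stretched stromal libraries and none held a lower one, beside the 2.05% of all genes tested that were higher and the 2.93% that were lower. Among 16 bulge and stem cell genes, all tested, 1 was higher, *Nfatc1*, a transcription factor that keeps bulge stem cells at rest, with 182 ± 17.1 CPM in stretched libraries against 81.0 ± 27.1 CPM in controls (SD, n = 4 each; log2 fold change 1.08 ± 0.27 SE; edgeR, adjusted p = 0.0483). The median of the list was 0.58. Of 18 measured shaft and matrix genes 8 were tested and 1 was higher, *Krt35*, a hair keratin, with 0.724 to 51.1 CPM in stretched libraries against 0 to 1.11 CPM in controls (5.06 ± 1.28 SE; edgeR, adjusted p = 0.0485). Of 17 inner root sheath and companion layer genes 6 were tested and 0 passed. *Krt28*, a keratin of the inner root sheath, had 0.617 to 23.1 CPM in stretched libraries against 0.0572 to 0.635 CPM in controls, with an adjusted p of 0.0523 (edgeR). Of 21 genes of follicle signalling pathways 19 were tested and 1 was higher, *Notch1*, a receptor for Jagged and Delta ligands, with 7.73 ± 3.37 CPM in stretched libraries against 2.34 ± 0.725 CPM in controls (SD, n = 4 each; 1.65 ± 0.42 SE; edgeR, adjusted p = 0.0485).

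The pathways of the stem cell markers themselves gave no call. In the list for LGR receptors and R-spondins 0 of 11 tested genes passed, 7 had a positive log2 fold change and the median was 0.60. *Lgr4*, the third receptor of the family, had 21.03 ± 4.15 CPM in stretched and 12.2 ± 2.90 CPM in control stromal libraries (SD, n = 4 each; 0.71 ± 0.23 SE), and *Rspo3*, an R-spondin ligand, 2.52 ± 0.548 CPM in stretched libraries against 5.29 ± 2.38 CPM in controls (−1.14 ± 0.35 SE). All 7 genes of the LRIG and ERBB list had a positive log2 fold change and 0 passed. *Lrig3* had 28.4 ± 3.97 CPM in stretched libraries against 15.5 ± 3.84 CPM in controls (0.80 ± 0.21 SE), and the receptor gene *Erbb3* 7.76 ± 2.99 CPM in stretched libraries against 2.72 ± 1.09 CPM in controls (1.44 ± 0.39 SE). Of 20 genes in the list of relatives of the members, which held *Dlx3* too, 11 were tested and *Dlx3* was the 1 call. *Dlx2*, another Distal-less homeobox gene, had 0.190 to 7.25 CPM in stretched libraries against 0 to 0.594 CPM in controls, without passing (3.25 ± 1.11 SE). *Hoxc8* and *Hoxc10*, genes of the same cluster as *Hoxc13*, had log2 fold changes of −0.83 ± 0.22 and −0.72 ± 0.23 (SE) and did not pass.

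Lists for other cells of the stromal fraction were measured beside the members. In the lists for suprabasal keratinocytes, sebaceous gland, dermal papilla, fibroblasts, melanocytes, Schwann cells, both kinds of endothelium and mast cells, 0 genes passed. Lymphocyte genes were mostly too low to be tested there: the filter kept 3 of 8 T cell genes, 5 of 11 genes of type 2 innate lymphocytes and T helper 2 cells and 0 of 6 of dendritic epidermal T cells, and 0 of those kept passed. In the skeletal muscle list 2 of 6 passed and were higher, *Myh1* (2.34 ± 0.56) and *Atp2a1* (2.01 ± 0.48), and the summed muscle level was 734 to 1694 CPM in stretched and 406 to 1013 CPM in control stromal libraries. The 6 leukocyte genes summed to 8.28 to 20.95 CPM in stretched and 5.23 to 17.2 CPM in control stromal libraries.

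In the immune fraction the members had few reads and no member passed for stretch. The filter kept 4 of the 10, *Gata3*, *Sox9*, *Lgr5* and *Lrig1*, and 0 were called, as were 0% of the 14183 genes tested (edgeR; 2467 genes had an unadjusted p under 0.05, none of them a member, while DESeq2 called 781 genes and limma-voom 888). No member had all stretched libraries above or below all controls, against 8.35% of the genes tested above, 2.81% below and, of all genes with an immune read, 3.34% above. *Gata3*, which T helper 2 cells and type 2 innate lymphocytes need, had 22.98, 37.8, 33.1 and 33.3 CPM in stretched immune libraries 1, 2, 7 and 8, against 38.5, 28.0, 40.8 and 35.7 CPM in control immune libraries 3 to 6. The groups overlapped for *Gata3*, with a log2 fold change of −0.35 ± 0.23 (SE; edgeR, adjusted p = 0.430).

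Epithelial members varied widely among the immune libraries. *Sox9* had 15.6, 8.55, 9.49 and 24.6 CPM in stretched immune libraries, against 47.8, 28.6, 1.71 and 10.9 CPM in control immune libraries, a log2 fold change of −0.85 ± 0.75 (SE; edgeR, adjusted p = 0.565). *Lgr5* had 8.01, 1.88, 5.53 and 9.91 CPM in stretched and 4.94, 24.5, 2.69 and 3.28 CPM in control immune libraries (−0.87 ± 0.81 SE), and its direction turned without control library 4, to 0.71. *Lrig1* had 3.86, 1.25, 7.98 and 9.71 CPM in stretched and 5.15, 11.6, 0.733 and 3.42 CPM in control immune libraries (−0.20 ± 0.81 SE), which turned to 0.78 without control library 4 and to 0.12 without stretched library 2. The summed basal keratinocyte level was 692, 113, 347 and 795 CPM in stretched immune libraries 1, 2, 7 and 8, and 1762, 848, 70.8 and 225 CPM in control immune libraries 3 to 6. Library 8 was the highest stretched immune library for 8 of the 10 members, and library 4 the highest control immune library for 8.

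The other 6 members did not pass the filter in the immune fraction, and their reads were uneven among its libraries. *Tchh* had 0.417 to 1.79 CPM in stretched and 0.410 to 5.51 CPM in control immune libraries, and *Lgr6* 0.209 to 1.58 CPM in stretched and 0 to 10.003 CPM in control immune libraries. *Dlx3* and *Hoxc13* had 18 and 9 reads in all 4 stretched immune libraries, and 12 and 18 reads in the 4 control immune libraries. *Msx2* had 43 reads in the stretched immune group, 37 of them in library 8, and 2 in the control immune group. *Foxn1* had 7 reads in the stretched immune group, all in library 8, and 4 in the control immune group, all in library 4. A count of 0 allowed up to 3 counts, which is 0.149 to 0.427 CPM per stretched immune library and 0.450 to 1.13 CPM per control immune library.

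Whether stretch acted differently in the 2 fractions was tested as an interaction over all 16 libraries. The filter kept 9 of the 10 members (not *Foxn1*) and 0 were called, as were 0% of the 18295 genes tested (edgeR; 4232 genes had an unadjusted p under 0.05, and DESeq2 called 1625 genes, 3 of them members). The stromal effect minus the immune effect was 3.35 ± 1.08 for *Tchh* (SE; edgeR, adjusted p = 0.107), 4.37 ± 1.47 for *Dlx3* (adjusted p = 0.113) and 4.98 ± 1.72 for *Hoxc13* (adjusted p = 0.123). These 3 had an unadjusted p under 0.05. Without control immune library 4 the difference was 1.78 for *Tchh*, 0.30 for *Lgr5*, 1.22 for *Lgr6* and 0.080 for *Lrig1*, and without stretched stromal library 8 it was 3.23 for *Hoxc13*. Without both of these and stretched stromal library 7 it was 0.77 for *Tchh* and 2.76 for *Hoxc13*, and *Dlx3* did not pass the filter. The difference of *Msx2* was −0.083 without stretched immune library 8, −1.19 without control stromal library 1 and −1.21 without control immune library 3, and that of *Gata3* 1.78 without control stromal library 1. *Tchh* was called without control immune library 6 (edgeR, adjusted p = 0.0454). It was 2.46 ± 1.30 for *Lgr6*, 1.72 ± 0.90 for *Lgr5*, 1.21 ± 0.83 for *Sox9*, 0.86 ± 0.60 for *Gata3* and −1.84 ± 1.55 for *Msx2*, with adjusted p of 0.261 to 0.498. For *Lrig1* it was 0.93 ± 0.80 (adjusted p = 0.508), so the stromal call for *Lrig1* was not shown to differ from its immune value.

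Between the sorted fractions, most members were higher in stromal than in immune cells of stretched skin, and *Gata3* was lower. In stretched skin 8 of the 10 members were tested and 6 were higher in stromal libraries, *Lrig1*, *Lgr5*, *Lgr6*, *Sox9*, *Tchh* and *Dlx3*, where 25.1% of the 17116 genes tested were higher. *Tchh*, *Dlx3*, *Lgr6* and *Msx2* had as few as 2, 0, 1 and 0 reads in a stretched immune library. They met the filter only with stromal libraries, so their signs and calls are not independent of the filter. *Gata3* was lower, as were 23.9% of the genes tested. In control skin 5 of the 10 were tested and 1 passed, *Gata3*, lower in stromal libraries as were 26.6% of the 15142 genes tested, while 22.8% were higher. Counting either direction, 49% of the genes passed in stretched skin and 49.4% in control skin, so calls between the fractions were common for any gene.

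In stretched skin *Lrig1* was 2.78 ± 0.50 higher on the log2 scale in stromal libraries (SE; edgeR, adjusted p = 0.00154). *Lgr5* was 2.46 ± 0.45 higher (adjusted p = 0.00187), *Lgr6* 2.42 ± 0.49 (adjusted p = 0.00309) and *Sox9* 1.91 ± 0.37 (adjusted p = 0.00249). *Dlx3* was 3.26 ± 0.93 higher (adjusted p = 0.0157) and *Tchh* 1.93 ± 0.61 (adjusted p = 0.0245). The 4 stromal libraries lay above the 4 immune ones for *Lrig1*, *Lgr5*, *Lgr6*, *Sox9* and *Dlx3* among the members tested, beside 24.9% of all genes tested, and for *Hoxc13*, which was not tested (12.2% of all 41452 genes with a read). *Msx2* missed the threshold at 2.19 ± 0.84 (adjusted p = 0.0518). Without stretched stromal libraries 7 and 8, 4 members were called in place of 7: *Lrig1*, *Lgr5*, *Lgr6* and *Sox9*. The log2 fold change was then 0.86 for *Tchh* (edgeR, adjusted p = 0.299), 2.71 for *Dlx3* (adjusted p = 0.0573) and −1.30 for *Gata3* (adjusted p = 0.0650).

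In control skin *Lrig1* separated the fractions, with all stromal libraries above all immune ones (25.9% of all genes tested did so), but its log2 fold change of 1.57 ± 0.62 just missed the threshold (SE; edgeR, adjusted p = 0.0538). Without control immune library 4 it was called, and the number of members called was 4. *Msx2* had 103 reads of 68959469 counts in control stromal and 2 reads of 18638917 counts in control immune libraries, too few for the filter. Its libraries did not overlap either, as in 10.7% of all genes with a read. *Lgr5* (0.45 ± 0.73), *Sox9* (0.45 ± 0.66) and *Lgr6* (−0.30 ± 1.11) did not pass (SE; edgeR, adjusted p of 0.597 to 0.837). Control immune library 3, with 47.8 CPM of *Sox9*, and control immune library 4, with 24.5 CPM of *Lgr5* and 10.003 CPM of *Lgr6*, reached the stromal range. The 2 sort comparisons share no library, and whether they differ for a member is the interaction given above.

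*Gata3* was lower in stromal than in immune libraries, as were most listed genes of lymphocytes, mast cells, leukocytes in general and endothelium. It was 2.29 ± 0.49 lower on the log2 scale in stromal than in immune libraries of control skin (SE; edgeR, adjusted p = 0.00267) and 1.20 ± 0.31 lower in stretched skin (adjusted p = 0.0105), with no overlap between the fractions in either. All stromal libraries lay below all immune ones for 23.8% of genes tested in stretched and 21.3% in control skin. Of 11 genes of type 2 innate lymphocytes and T helper 2 cells, 7 of the 11 tested in stretched skin and 7 of the 10 tested in control skin were lower in stromal libraries. In stretched skin 1 gene of this list was higher in stromal libraries, *Bcl11b*, named after its value was seen, and in control skin 0 were. Of the 6 genes of dendritic epidermal T cells all 6 were lower in both. So were all 6 mast cell genes and all 6 leukocyte genes. Of 6 blood endothelial genes, 4 were lower in stretched and 5 in control skin, with 1 higher in each. Of 5 lymphatic endothelial genes, 4 were lower in each, with 1 higher in stretched and 0 in control skin. A lower level in stromal libraries was thus not particular to genes of lymphocytes or of leukocytes. *Icos*, a costimulatory receptor of T cells and innate lymphocytes, had a log2 fold change of −6.64 in stretched and −6.38 in control skin. In stromal libraries the genes of type 2 innate lymphocytes and T helper 2 cells summed to 161 to 413 CPM in stretched and 142 to 532 CPM in control skin. The 8 T cell genes summed there to 34.5 to 90.003 CPM in stretched and 71.04 to 241 CPM in control skin, and the 6 genes of dendritic epidermal T cells to 0.364 to 1.82 CPM in stretched and 0.386 to 0.733 CPM in control skin. Such sums weigh the highest genes most, and most genes tested in these lists were lower in stromal libraries. The median log2 fold change of the type 2 list was −6.64 in stretched and −6.63 in control skin, with 3 genes above 0 in each. That of the T cell list was −6.04 and −6.80, with 1 gene above 0 in each. The 6 leukocyte genes summed to 8.28 to 20.95 CPM in stretched and 5.23 to 17.2 CPM in control stromal libraries. The part of lymphocytes in the stromal *Gata3* level was not tested.

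**Figure D5:**
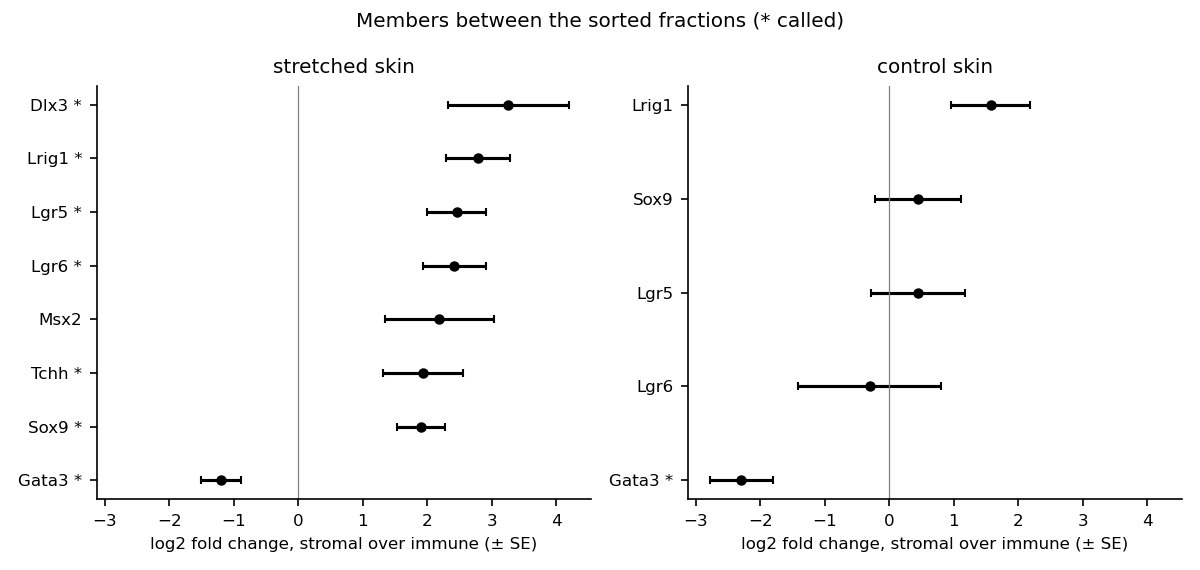
Log2 fold change of stromal over immune libraries (points, with bars of ± SE) for the members tested in stretched skin (left, 8 genes) and in control skin (right, 5 genes). Asterisks mark members called at an adjusted p under 0.05; *Gata3* is the 1 gene clearly below 0 in both panels.

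Over the 8 stromal libraries, the genes most like a member were sought for the 4 members with at least 20 reads in every stromal library. Likeness was the Pearson correlation of deviations from the group means of log2 CPM, over 13448 protein-coding genes. For *Lrig1* the 3 closest were *Fam53c* (r = 0.995), *Wdr19* (r = 0.988) and *Rnf123* (r = 0.981). For *Lgr5* they were *Upp2* (r = 0.991), *Trrap* (r = 0.988) and *Cox6b2* (r = 0.985), and for *Sox9* *Emb* (r = 0.997), *Nfkbid* (r = 0.974) and *Gpr3* (r = 0.972). For *Gata3* they were *Rasl12* (r = 0.997), *Efna3* (r = 0.992) and *Paqr5* (r = 0.985). Spearman's rho was 0.90 to 1 for these 12 genes. The names describe 8 libraries that share depth and cell mix within each library, chosen as the highest of 13448 values.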

How the data were processed

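Bulk RNA-seq libraries were made from CD45-sorted mouse skin cells with a Norgen total RNA kit, SMART-Seq mRNA LP cDNA and Nextera XT, per the labels' protocols. The authors deposited raw read counts per gene for all 16 libraries. FastQC 0.11.9, STAR and the build mm10 are named in the submitters' processing notes. Which tool counted the reads, whether it used strand or multi-mapped reads, and with which annotation, is not given in the sources used here.

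Groups came from the sample titles and treatment labels. Genes were kept with edgeR's filterByExpr (minimum count 10, minimum total 15) and tested with edgeR 4.0.16 quasi-likelihood F tests on TMM-scaled counts in R 4.3.3, with Benjamini-Hochberg adjustment over all genes tested and a threshold of 0.05. The SE was derived from the F statistic. Single-gene CPM was TMM-scaled over all 16 libraries, and list and receptor sums were scaled to the library total. The TPM-like level used the longest annotated transcript of GENCODE M21. Single values were compared by exact permutation tests (scipy 1.17.1). The code was tested on simulated data. Reads carry no molecular identifiers, so floors of 3 counts cover counting error only.

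The members and lists were chosen with earlier results of these data known. Genes named were the 10 members, up to 4 per list with the smallest p, 3 genes most like each member with at least 20 reads in every stromal library, and *Ptprc*. Alternatives were DESeq2 1.42.0, limma-voom (limma 3.58.1), other scaling and filters, 1 fit of all libraries, a detected-gene covariate, a replicate block and omitted libraries. The length and GC offsets, and the omission of stretched stromal libraries 7 and 8 between the fractions, were chosen after seeing the data.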

Additional observations from a re-analysis of the deposited data

Results flagged for a closer look

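In 5 of 39 sets of 4 libraries, 1 library stood apart from the other 3 of its group by Dixon's test, which chance does in about 1 of 20 groups. That rate does not hold for 2 of the 5, both of *Foxn1*, where the other 3 libraries had no read and any read gives the same result. *Tchh* had 5.51 CPM in control immune library 4, against 0.410 to 0.977 CPM in the other 3. *Lgr5* had 24.5 CPM in the same library, against 2.69 to 4.94 CPM, and *Foxn1* 0.817 CPM, against 0. That library also carried 6209 CPM of olfactory and vomeronasal receptor reads, and their part in these values was not tested. *Hoxc13* had 5.46 CPM in stretched stromal library 8, against 0.285 to 1.01 CPM in the other 3. *Foxn1* had 0.358 CPM in stretched immune library 8 and 0 in the other 3.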

How the results depend on the processing

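For stretch in the stromal fraction, 800 genes and 3 members were called. DESeq2 called 2312 genes, limma-voom 3599 genes and 5 members, no filter 2115 and 6, a stricter filter 1378 and 1, the length and GC offsets 4 and 0, and the detected-gene covariate 1 and 0. The fit of all 16 libraries and the omission of stretched libraries 7 and 8 called 0 and 0. Leaving out 1 library gave 0 to 1589 genes and 0 to 3 members. For the immune fraction, with 0 calls, DESeq2 gave 781 genes, limma-voom 888, all 16 libraries 667 and single omissions 0 to 45. For the difference of effects, with 0 calls, DESeq2 gave 1625 genes and 3 members, limma-voom 1453 genes, no filter 3924 and 1, a stricter filter 120, and single omissions 0 to 1495 genes and 0 to 1 members. Between fractions of control skin 7484 genes and 1 member were called. Members numbered 2 with DESeq2, no filter or the offsets, 4 with limma-voom, 3 with all 16 libraries or the covariate, and 1 to 4 over single omissions. In stretched skin, with 8380 genes and 7 members, the covariate gave 4648 and 4 and the omission of libraries 7 and 8 gave 5402 and 4. The cause of these shifts was not tested.

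Same-numbered libraries of the 2 fractions did not deviate together (r of −0.110 to 0.186), so the numbers were not taken as pairs. With a replicate block over all 16 libraries, 0 genes and 0 members were called for stromal stretch, 2 genes for the difference of effects, 2 members between fractions of control skin, and 4780 genes and 4 members in stretched skin. A block over the 8 control libraries gave 3642 genes.

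Of 666 alternatives for single members, 569 kept direction and call, 27 gained a call, 50 lost one and 20 turned direction, all of members not called. *Msx2* for stromal stretch was −0.28 under the replicate block. For immune stretch, *Lrig1* was 1.04 with limma-voom, 0.014 with no filter, 0.12 with all 16 libraries, the covariate or without stretched library 2, and 0.78 without control library 4. *Lgr5* was 0.74 with limma-voom and 0.71 without control library 4, and *Sox9* 0.35 with limma-voom. The difference for *Lrig1* was −0.13 with limma-voom, −0.22 with the covariate and −0.24 without stretched stromal 7 and 8 and control immune 4. Between fractions of control skin, *Lgr6* was 1.71 with limma-voom, 0.31 with the covariate, 0.078 with the offsets, 0.095 without stromal library 4 and 1.04 without immune library 4. Under the block over 8 libraries *Lgr5* was −0.42 and *Sox9* −0.72. Over single omissions, immune *Lrig1* spanned −0.62 to 0.78, immune *Lgr5* −1.25 to 0.71 and control *Lgr6* between fractions −0.64 to 1.04. Depth limited the rare members, whose single-library floor was 0.111 to 1.13 CPM.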
